A study of Rattus norvegicus with 2 samples.

Results

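The 9 genes described here encode enzymes, though not all, of the route from squalene epoxide to lanosterol and on, step by step, to cholesterol. They are Lss, Cyp51, Tm7sf2, Msmo1, Nsdhl, Hsd17b7, Ebp, Sc5d and Dhcr7, and they were taken by gene symbol from the 23188 transcript clusters of a rat array, where a cluster is a group of probes for a gene or transcript. They filled 10 clusters, because Lss had 2 of its own and each of the others had 1. None of the 10 clusters carried a second gene symbol, and all 9 genes are in the results below.

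The cells were C6 TAZ, rat C6 glioma cells in which tafazzin was knocked out with CRISPR-Cas9, and wild-type C6, the unmodified line. C6 is an established line from a rat brain tumour, and tafazzin is the mitochondrial acyltransferase that remodels cardiolipin. Both lines were kept in DMEM with a low share of fetal serum, which supplies lipoprotein cholesterol, and without further treatment. For each line, RNA from 3 independent cultures was pooled and measured on 1 Affymetrix Clariom S array. There is thus 1 value per gene and condition, no spread between cultures, and no test, so that genes are called higher or lower in an array and nothing more. Whether the knock-out line is 1 clone is not stated in the sources. Tafazzin (Taz) itself had log2 signals of 9.84 in the C6 TAZ array and 10.34 in the C6 array, which is −0.50 apart, and where its probes lie relative to the edited part of the gene is not known here, so that this checks nothing.

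A question about names comes before the values. The signals were deposited as a workbook with columns named by condition and again as a table whose columns are titled by sample, and the columns of these tables are exchanged. All 23188 clusters have equal values, within 0.006, once the columns are exchanged, against 1.16% as labelled. The names of the workbook are used here, since they give the condition itself, since its closing lines name the same comparison and since the study prints signals under these names. Read by the sample titles instead, each difference below would have the opposite sign.

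The median log2 signal was 6.40 on the C6 TAZ array and 6.39 on the C6 array, and the signals lay between 2.71 and 18.94 on the C6 TAZ array and between 2.6 and 18.97 on the C6 array. The glial markers S100b (10.40 in C6 TAZ, 9.82 in C6), Vim (18.77 and 18.72), Nes (13.08 and 13.22), Cspg4 (10.36 and 9.86), Ncam1 (17.25 and 17.02) and Gja1 (12.64 and 13.18) were well above the array medians in both lines. Gfap was at 6.38 in C6 TAZ and 5.73 in C6, and Slc1a3, an astrocyte glutamate transporter, was at 4.67 and 3.91, below the medians. Of 9 markers of immune, endothelial, liver, neuronal and heart cells, 8 had signals below the medians in both arrays. The exception was the lysosomal macrophage protein Cd68, with 8.42 in C6 TAZ and 6.30 in C6, beside 4.76 and 4.94 for the leukocyte antigen Ptprc. Whether Cd68 bears on the sterol genes was not tested.

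Cholesterol synthesis runs in the membrane of the endoplasmic reticulum from the ring closure on. Lanosterol, the first sterol, carries 3 methyl groups that cholesterol lacks and differs from it in its double bonds. The enzymes described here take the methyl groups off and move, add or reduce double bonds in the rings. In mammalian cells the genes of the route are known to be transcribed together under SREBP-2, a membrane-bound transcription factor that is released when sterols in the endoplasmic reticulum are low, and SREBP proteins are known to act beside the general factors NF-Y and Sp1. Glial cells are a major source of cholesterol within the brain, since lipoproteins of the blood do not pass into it.

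Because these genes are known to be transcribed together, the 250 bases before the transcript start are shown for 5 of them, which cover the largest and the smallest difference between the arrays and the most and the fewest CCAAT boxes. The sequences are from RefSeq on the GRCr8 build, while the array was annotated on rn6, so that these coordinates are those of RefSeq and not of the clusters. They are written from 5′ to 3′ along the gene, and the capitals mark CCAAT, the letters bound by NF-Y, and GGGCGG, the GC box of Sp1, or their reverse complements ATTGG and CCGCCC.
Hsd17b7, chr13:84722755-84723004, minus strand: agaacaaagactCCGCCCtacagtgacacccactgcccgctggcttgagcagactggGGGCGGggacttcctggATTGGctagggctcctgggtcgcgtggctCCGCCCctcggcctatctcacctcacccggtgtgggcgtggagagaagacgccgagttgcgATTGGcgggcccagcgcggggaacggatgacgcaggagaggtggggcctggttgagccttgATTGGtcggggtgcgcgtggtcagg
Tm7sf2, chr1:212789542-212789791, minus strand: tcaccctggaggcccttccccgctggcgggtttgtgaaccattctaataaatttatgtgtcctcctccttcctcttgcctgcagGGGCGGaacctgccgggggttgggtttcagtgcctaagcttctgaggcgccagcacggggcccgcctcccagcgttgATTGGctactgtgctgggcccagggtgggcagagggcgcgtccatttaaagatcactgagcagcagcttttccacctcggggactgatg
Nsdhl, chrX:155817110-155817359, plus strand: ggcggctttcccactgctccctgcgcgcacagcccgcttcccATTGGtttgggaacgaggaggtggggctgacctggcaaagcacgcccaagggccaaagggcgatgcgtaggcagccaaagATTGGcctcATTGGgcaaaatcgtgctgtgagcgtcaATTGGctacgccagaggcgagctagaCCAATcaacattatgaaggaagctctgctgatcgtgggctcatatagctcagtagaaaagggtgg
Cyp51, chr4:30991443-30991692, plus strand: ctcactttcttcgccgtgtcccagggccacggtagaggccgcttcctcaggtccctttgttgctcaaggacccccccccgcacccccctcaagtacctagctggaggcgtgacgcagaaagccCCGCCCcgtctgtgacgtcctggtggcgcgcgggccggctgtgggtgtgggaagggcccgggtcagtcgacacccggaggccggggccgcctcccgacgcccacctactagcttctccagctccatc
Msmo1, chr16:29746863-29747112, plus strand: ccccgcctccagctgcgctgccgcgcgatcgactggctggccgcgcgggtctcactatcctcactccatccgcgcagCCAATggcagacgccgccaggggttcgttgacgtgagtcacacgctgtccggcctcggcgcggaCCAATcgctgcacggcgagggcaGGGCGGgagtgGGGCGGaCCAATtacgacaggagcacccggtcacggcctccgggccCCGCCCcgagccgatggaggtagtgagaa

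All 9 genes matched an entry of the RefSeq promoter table, and the search covered both strands of a window of 300 bases, of which 50 lie after the start. CCAAT was present in 7 of the 9 windows with 17 matches in all, against 37.5% of the 33469 windows in the table. Nsdhl had 5 matches, Msmo1 and Hsd17b7 had 3 each, Tm7sf2 and Ebp 2 each, and Lss and Sc5d 1 each, while Cyp51 and Dhcr7 had none. Of the 17 matches, 13 read ATTGG along the gene and 4 read CCAAT, and 3 of those 4 were in the Msmo1 window.

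The matches lay at similar distances from the start in different genes. A match began 82 bases before the start in Lss, 85 in Ebp, 86 in Hsd17b7, 87 in Sc5d, 89 in Tm7sf2 and 91 in Nsdhl, each time as ATTGG along the gene. A match that began 50 to 150 bases before the start was present in 7 of 9 windows of these genes and in 18% of all windows. One read as ATTGG was present in 6 of 9 and in 9.89%. Among windows with a like content of G and C, the shares were 20.5% and 11.8%. This range of distances was chosen after the positions were seen.

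The GC box was present in 8 of 9 windows, all but that of Nsdhl, against 33.1% of all windows. Among the 15617 windows of genes on the array, the share was 50.9%. The windows of the 9 genes were rich in G and C, with 57.3% to 71.0% and a median of 65.7%, against a median of 51.7% over all windows. Among the 8863 windows within that range of base composition, 68.7% held a GC box and 35.5% a CCAAT box. Both boxes stood together in 6 of 9 windows, in 11.8% of all windows and in 25.7% of those of like composition. The letters TCACNCCAC, a form of the sterol regulatory element, were in none of the 9 windows and in 1.12% of all. This says only that these letters are not in these 300 bases. A match of either kind is a match of letters and not a measured site, and 2 overlapping GC boxes in the Dhcr7 window were counted apart.

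**Figure D1:**
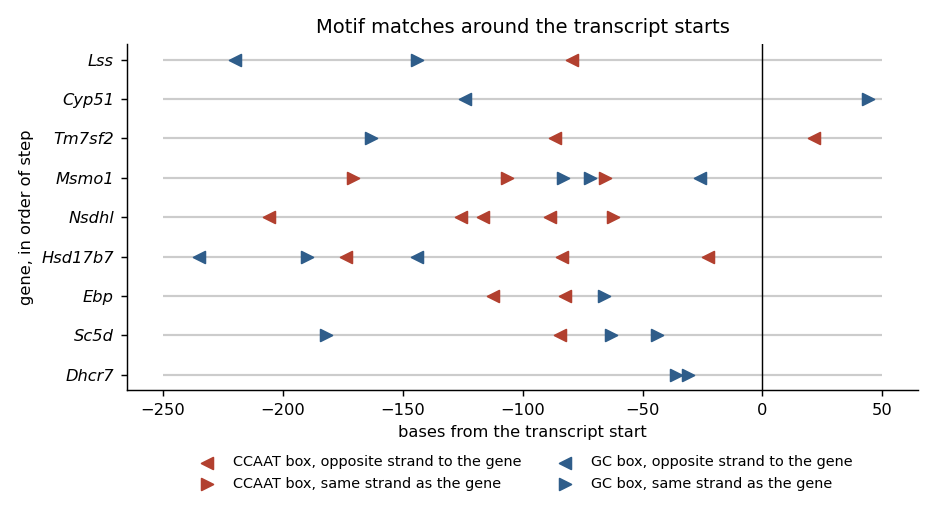
Positions of CCAAT and GC boxes in the windows of the 9 genes, with bases from the transcript start on the horizontal axis and the genes in order of their step from top to bottom. Red triangles are CCAAT boxes and blue triangles GC boxes, and a triangle points right where the match is on the strand of the gene. The red triangles of Lss, Tm7sf2, Hsd17b7, Ebp and Sc5d line up between 82 and 89 bases before the start, and Cyp51 and Dhcr7 have none.

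All 9 genes had a lower signal in C6 TAZ, each by at least 2-fold, that is a log2 difference of C6 TAZ minus C6 of −1 or below. Over all 23188 clusters, 487 or 2.10% were lower by as much and 543 or 2.34% were higher by as much. The differences of the 9 genes ran between −2.77 and −1.19 with a median of −1.90, whereas the median over all clusters was 0.00. Of the 9 genes, 4 were lower by 4-fold or more, against 31 clusters or 0.134% of all. These 4 were Hsd17b7, Tm7sf2, Cyp51 and Nsdhl. In pooled RNA, less of a transcript in each cell and fewer cells that carry it cannot be told apart.

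The background was also read among clusters of like signal. The 10 clusters of the post-squalene genes had mean signals of both arrays between 8.71 and 15.77, a range that held 7985 clusters with a median difference of −0.01. Of these 7985, 189 or 2.37% were lower by 2-fold or more and 18 or 0.225% by 4-fold or more. Counted from the lowest difference of all clusters, Hsd17b7 stood at place 3, Tm7sf2 at 7, Cyp51 at 17 and Nsdhl at 20, and Msmo1 was the farthest from the top at place 237.

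**Figure D2:**
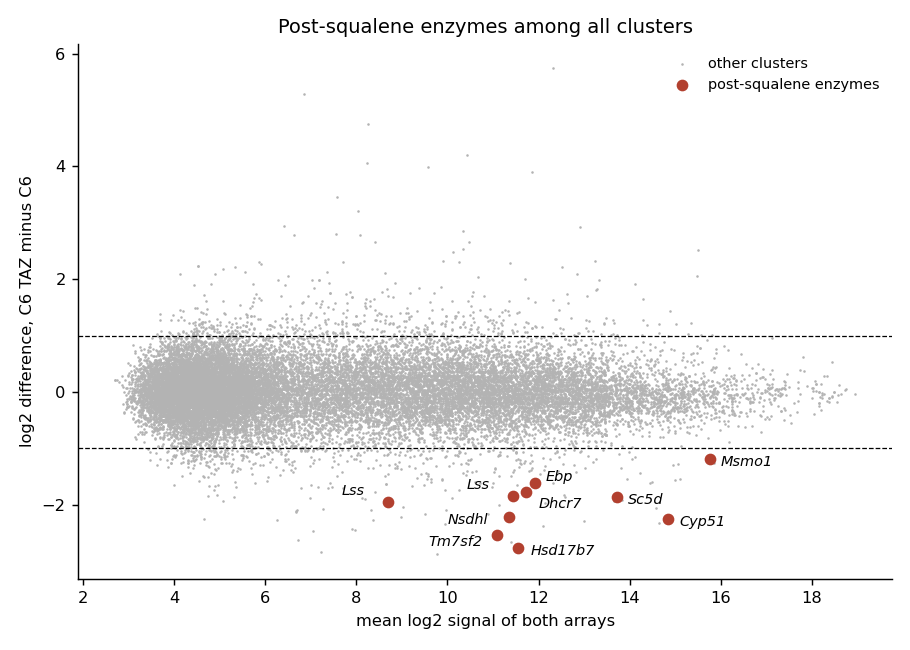
Log2 difference of C6 TAZ minus C6 against the mean log2 signal of both arrays, with 1 point per transcript cluster. Red points are the 10 clusters of the post-squalene enzymes, grey points are all others, and dashed lines mark 2-fold. The red points all lie below the lower line, between −2.77 and −1.19, while the grey cloud is centred on 0.

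Ring closure is the work of Lss, lanosterol synthase, which folds squalene epoxide into the ring system of the sterols. Its brighter cluster had log2 signals of 10.52 in C6 TAZ and 12.36 in C6, and its dimmer cluster 7.73 in C6 TAZ and 9.68 in C6. The differences were −1.84 and −1.95, or 3.58-fold and 3.86-fold lower in C6 TAZ, and their mean was −1.90. The clusters of Lss were thus 0.11 apart in difference. Among 216 genes with 2 clusters of their own at a signal of 8 or more, the median distance between the clusters was 0.14 and the 90th percentile was 0.51. Some of these genes had clusters with equal values on both arrays, and they were kept, which lowers the distances. The distance is between clusters of a gene on the same arrays and is no replicate error. It gives only a rough scale for reading the order of the genes.

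Cyp51, the cytochrome P450 that removes the methyl group at carbon 14 of lanosterol, had log2 signals of 13.72 in C6 TAZ and 15.97 in C6. The difference was −2.25, or 4.76-fold lower in C6 TAZ. It was the third largest of the 9, and the promoter window of Cyp51 was one of those without a CCAAT box.

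Tm7sf2 reduces the double bond at carbon 14 that Cyp51 leaves behind. It had log2 signals of 9.83 in C6 TAZ and 12.36 in C6, a difference of −2.53 or 5.78-fold lower in C6 TAZ. The same reaction can be carried out by Lbr, the lamin B receptor of the inner nuclear membrane, which has a sterol reductase domain. Lbr had 12.11 in C6 TAZ and 12.81 in C6, a difference of −0.70 or 1.62-fold lower, which is short of 2-fold. The enzymes that share this step were therefore 5.78-fold and 1.62-fold lower, and no test of the distance between them is possible with 1 array per condition.

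The methyl groups at carbon 4 are taken off by 3 enzymes in a cycle that runs for each methyl group. Msmo1, the oxygen-dependent C4-methyl oxidase that begins the cycle, had log2 signals of 15.17 in C6 TAZ and 16.36 in C6, a difference of −1.19 or 2.28-fold lower in C6 TAZ. Nsdhl, the dehydrogenase that removes the oxidised carbon as carbon dioxide, had 10.25 in C6 TAZ and 12.46 in C6, a difference of −2.21 or 4.63-fold lower. Hsd17b7, the reductase that restores the hydroxyl group at carbon 3, had 10.17 in C6 TAZ and 12.94 in C6, a difference of −2.77 or 6.82-fold lower.

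The smallest and the largest difference of the 9 genes thus belonged to enzymes of the same cycle. They were 1.58 apart on the log2 scale, a factor of 2.99, which is above the 90th percentile of the distance between 2 clusters of a gene. That percentile holds no spread between cultures or arrays, and it is for pairs that were not picked as extremes. Whether the distance would recur was not tested. Msmo1 was 0.42 from Ebp, the next gene in the order, and this distance is below that percentile. The Msmo1 and Hsd17b7 promoter windows each held 3 CCAAT boxes and 3 GC boxes. Whether these letters bear on the size of the differences was not tested.

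**Figure D3:**
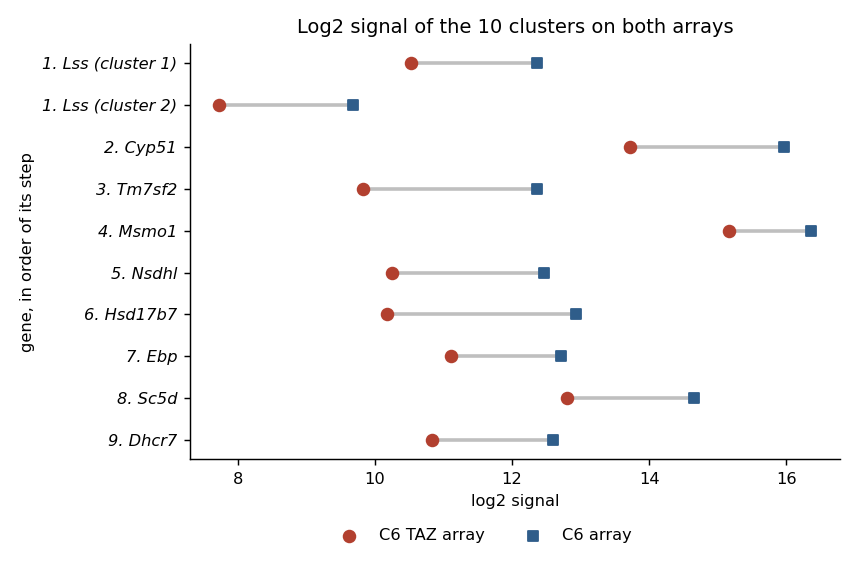
Log2 signal of the 10 clusters on both arrays, with the genes from top to bottom in the order of their step. Red circles are the C6 TAZ array, blue squares the C6 array, and the grey line joins the 2 values of a cluster. In each cluster the red circle lies to the left, with the longest line for Hsd17b7 (10.17 in C6 TAZ, 12.94 in C6) and the shortest for Msmo1 (15.17 in C6 TAZ, 16.36 in C6).

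The last steps described here shift, add and reduce double bonds in the ring. Ebp, the emopamil binding protein and sterol isomerase that moves the double bond from carbon 8 to carbon 7, had log2 signals of 11.11 in C6 TAZ and 12.72 in C6. The difference was −1.61, or 3.05-fold lower in C6 TAZ. Sc5d, the oxygen-dependent desaturase that adds the double bond at carbon 5, had 12.80 in C6 TAZ and 14.66 in C6, a difference of −1.86 or 3.63-fold lower. Dhcr7, the reductase that acts on 7-dehydrocholesterol and is mutated in Smith-Lemli-Opitz syndrome in humans, had 10.83 in C6 TAZ and 12.60 in C6, a difference of −1.77 or 3.41-fold lower. The 3 differences spanned 0.25 on the log2 scale.

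In order of size, the differences were those of Hsd17b7, Tm7sf2, Cyp51, Nsdhl, Lss, Sc5d, Dhcr7, Ebp and Msmo1. Neighbours in this order were 0.04 to 0.42 apart, all below the 90th percentile of 0.51 given above. Sorting puts like values side by side, so that small gaps are likely in any such list. With 1 array per condition, no pair of genes, neighbouring or not, can be put in order by a test. The order did not follow the order of the steps, since the first and the last enzyme of the list, Lss and Dhcr7, stood at places 5 and 7 with −1.90 and −1.77. By kind of reaction, a grouping made after the values were seen, the 4 NAD(P)-dependent reductases and dehydrogenases Tm7sf2, Nsdhl, Hsd17b7 and Dhcr7 had a median of −2.37 with a range of −2.77 to −1.77. The 3 oxygen-dependent enzymes Cyp51, Msmo1 and Sc5d had a median of −1.86 with a range of −2.25 to −1.19, and these ranges overlap.

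The signals of Msmo1 stood high on the scale of the arrays, and the correlation of the mean signal with the difference over the 9 genes was 0.45. Without Msmo1 it was 0.05 over 8 genes. These points share the same 2 arrays, and signals of different genes come from different probes, so that this is a description only. The signals of Cyp51, also high on that scale with 13.72 in C6 TAZ and 15.97 in C6, went with one of the larger differences.

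The enzymes before the ring closure make squalene epoxide by the mevalonate route. At least 2-fold lower signals in C6 TAZ were found for 8 of 9 such genes, and no gene of the list had a higher signal. The median difference was −1.90 for the 9 post-squalene genes and −2.29 for the mevalonate genes. The 8 were Acat2, the thiolase that joins acetyl groups (−2.29), Hmgcs1, the HMG-CoA synthase (−1.93), the kinases Mvk (−2.56) and Pmvk (−1.52), the decarboxylase Mvd (−2.43), the isomerase Idi1 (−2.37), the prenyl synthase Fdps (−2.32) and the squalene synthase Fdft1 (−1.92). The 9 post-squalene genes, between −2.77 and −1.19, spanned the range of these 8, between −2.56 and −1.52. With Sqle included, the mevalonate genes reached −0.56, which is outside the range of the post-squalene genes.

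Sqle, the squalene epoxidase that hands its product to Lss, was apart from both groups. It had log2 signals of 15.81 in C6 TAZ and 16.37 in C6, a difference of −0.56 or 1.47-fold lower in C6 TAZ. The smallest difference on either side of the ring closure thus belonged to an oxygen-dependent enzyme with a C6 signal near 16.4, Msmo1 after it and Sqle before it. Cyp51 and Fdps, at 15.97 and 15.81 in C6 and so below Msmo1 and Sqle, had differences of −2.25 and −2.32. Whether signals as high as those of Msmo1 and Sqle are compressed on these arrays was not tested. The highest signal on the C6 array was 18.97.

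**Figure D4:**
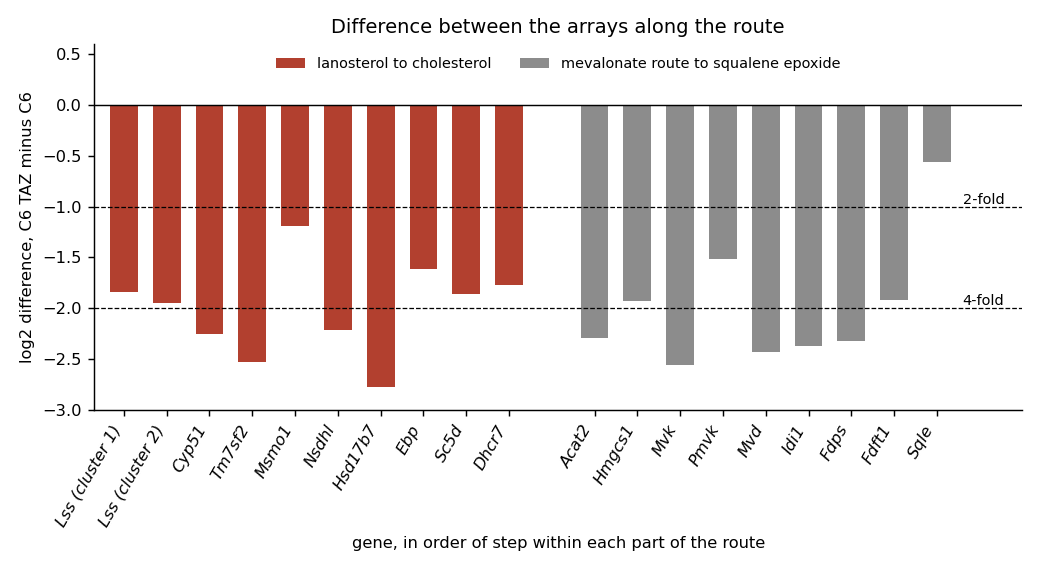
Log2 difference of C6 TAZ minus C6 along the route, with the post-squalene genes in red, clusters of Lss apart, and the mevalonate genes in grey. Bars start at 0 and dashed lines mark 2-fold and 4-fold lower in C6 TAZ. All red bars pass the 2-fold line, and in grey only Sqle, at −0.56, does not.

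The oxygen-dependent steps draw electrons from partner proteins in the same or in other membranes, and none of 5 such genes passed 2-fold in either direction. Over all clusters, 2.10% were lower and 2.34% higher by as much, so that this count says little about the 5 genes. The median difference of the 5 genes was −0.42. Por, the reductase that feeds cytochromes P450 such as Cyp51 and also squalene epoxidase, had 10.06 in C6 TAZ and 10.89 in C6, a difference of −0.83. Cyb5b, an outer mitochondrial cytochrome b5, had 11.07 in C6 TAZ and 11.97 in C6, a difference of −0.90. Cyb5a, the microsomal cytochrome b5, differed by −0.26, and Cyb5r3, its reductase, by −0.42. The largest difference the other way was that of Pgrmc1, a heme protein that binds cytochromes P450, with 13.14 in C6 TAZ and 12.63 in C6, a difference of 0.51. The 5 partners thus all lay nearer to 0 than each of the 9 enzymes, as did most clusters, since few passed 2-fold.

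Relatives of these enzymes in sequence did not all share their direction. Among 5 such genes, 1 was lower and 1 higher by at least 2-fold, with a median of −0.30. Of all clusters, 2.10% were lower and 2.34% higher by as much, so that these counts say little about the 5 genes. No sequences of proteins were compared here. Tmem97, which is related to Ebp and is known as the sigma-2 receptor, had 11.04 in C6 TAZ and 12.30 in C6, a difference of −1.26 or 2.39-fold lower in C6 TAZ. Ebpl, a further relative of Ebp, was at 4.14 in C6 TAZ and 4.36 in C6, below the array medians. Faxdc2, which belongs with Msmo1 and Sc5d to the fatty acid hydroxylase superfamily, had 9.27 in C6 TAZ and 7.99 in C6, a difference of 1.28 or 2.43-fold higher, in a cluster that it shares with LOC691221. Beside the −2.77 of Hsd17b7, its relative Hsd17b12, which acts in fatty acid elongation, differed by −0.30, with 12.97 in C6 TAZ and 13.27 in C6. Tm6sf1, the fifth, differed by −0.69.

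**Figure D5:**
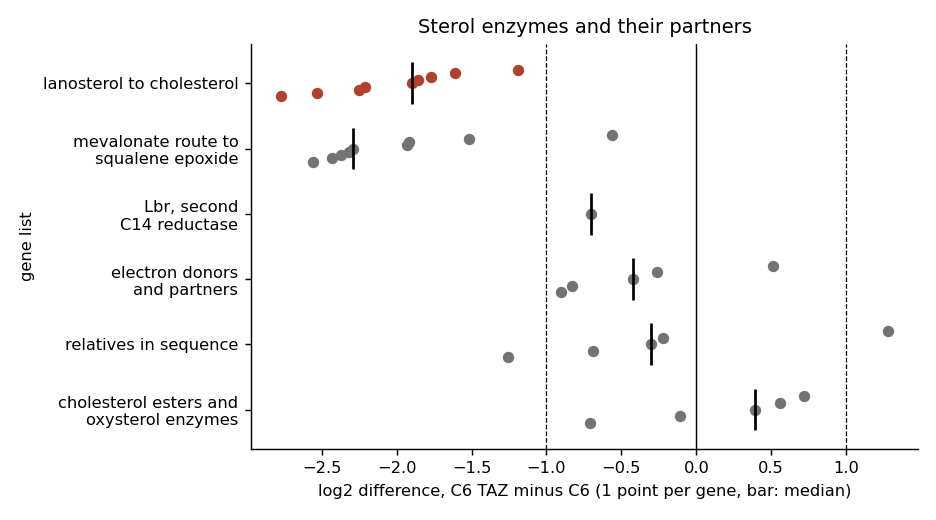
Log2 difference of C6 TAZ minus C6 for each gene of 6 lists, with 1 point per gene and a bar at the median of each list. Dashed lines mark 2-fold in either direction. The post-squalene genes in red lie between −2.77 and −1.19. The electron donors and partners lie between −0.90 and 0.51, within 2-fold like most of all clusters.

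Further genes with like differences were looked for among 5652 other protein-coding clusters that carry 1 symbol and had log2 signals of at least 10 in C6. Of these, 80, or 1.42%, had a difference between the smallest and the largest of the 9 genes, and 7 of the 80 were mevalonate genes of the list above. Among those nearest to the median of −1.90 were Fdft1 (−1.92), Cdkn3, a cell cycle phosphatase (−1.86), Hmgcs1 (−1.93) and Cxcl12, a chemokine (−2.01). Likeness here is that of 1 difference between 2 arrays, so that it shows no shared pattern over conditions. Fdft1 and Hmgcs1 are enzymes of the route before the ring closure, and Cdkn3 and Cxcl12 are not enzymes of the route.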

How the data were processed

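Rat C6 lines were measured on 2 Affymetrix Clariom S arrays, 1 per line, each with RNA pooled from 3 cultures. For each transcript cluster the authors deposited a log2 signal, which the submitters' notes link to Affymetrix Expression Console and the file header to an rn6 annotation. Summarization and normalization are not given in the sources used here, and a normalization that equalises the arrays would hide a shift shared by all genes. A deposited column of fold changes, the authors' own comparison, was not used.

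Per cluster, the C6 signal was subtracted from the C6 TAZ signal on the log2 scale and the result rounded to 2 decimals. A difference equal to a threshold counts as past it. The value of a gene is the mean of the clusters with its symbol alone, or of a shared cluster where there is no other. No detection measure was used, and only the number of arrays can be given as a limit of precision. With 1 array per condition no test was made.

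All 9 genes are named, and from the other lists those past 2-fold and the largest going the other way. Values of other list members are given beyond that rule. The members and lists were chosen with earlier results of these data known. Some genes under these rules are not reported here. Promoter windows came from RefSeq (GRCr8). The functions were tested on simulated data. Python 3.11.15, pandas 2.3.3, numpy 2.4.6 and matplotlib 3.10.9 were used. Alternatives covered scaling, clusters per gene, thresholds, column names and filters on signal.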

Additional observations from a re-analysis of the deposited data

How the results depend on the processing

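The number of arrays is the main limit, since no value has a replicate and no measure of background was used. Centring on the median, quantile normalization and centring on 122 ribosomal protein clusters moved no gene by more than 0.07 on the log2 scale. The median of the 9 genes stayed between −1.93 and −1.85 under these, and was −2.01 as a mean. A value was counted as moved when it shifted by 0.208 or more, the SD of the differences of the ribosomal protein clusters. With the brightest cluster, or with every cluster of a symbol, 9 of 9 genes stayed lower by 2-fold or more, as under each scaling. Every cluster gave the main values again, since no cluster of these genes was shared. The choice of the brightest cluster could change Lss alone.

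The threshold set the count. All 9 genes were lower by 1.5-fold, 8 by 3-fold and 4 by 4-fold. With the column names of the per-sample table, 0 of 9 genes were lower by 2-fold, the median of the 9 differences became 1.895, and each gene changed sign, to 1.895 for Lss, 2.25 for Cyp51, 2.53 for Tm7sf2, 1.19 for Msmo1, 2.21 for Nsdhl, 2.77 for Hsd17b7, 1.61 for Ebp, 1.86 for Sc5d and 1.77 for Dhcr7.

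The share of clusters lower by 2-fold or more lay between 2.04% and 2.65% under the filters on signal, with 1 value per symbol or with protein-coding clusters alone. The range of mean signal of the 9 genes as a filter was added after seeing the data. The deposited fold changes were not run as an alternative, since they are the authors' own comparison. No paired analysis was possible because each condition has 1 array, and for the same reason no replicate could be left out.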

Other observations

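Of 5 genes for enzymes that store or oxidise cholesterol, none passed 2-fold in either direction, against 2.10% of all clusters lower and 2.34% higher by as much. Of these 5 genes, 2 had a lower and 3 a higher signal in C6 TAZ, and the median difference was 0.39. Soat1, which esterifies cholesterol for storage, had log2 signals of 14.39 in C6 TAZ and 13.83 in C6, a difference of 0.56. The oxysterol enzymes Ch25h (4.14 in C6 TAZ, 3.42 in C6), Cyp7b1 (3.54 and 3.65), Cyp46a1 (4.80 and 5.51) and Cyp27a1 (3.82 and 3.43) had signals below the array medians on both arrays, where differences of this size carry little weight.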
